A study of Mus musculus with 6 samples.

Results

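Wnt ligands, their receptors and the genes that carry or block their signal were examined in cells sorted as young neurons of the mouse cortex. The 43 genes were taken by symbol from the deposited table, which has 22544 rows, and all 43 were found. They were read in 6 roles, namely 15 Wnt ligands, 10 Frizzled receptors, 2 LRP co-receptors, 8 cytoplasmic transducers, 4 TCF/LEF factors and 4 secreted antagonists. RNA had been sequenced from upper-layer cortical neurons of Swiss Webster mice, labelled with green fluorescent protein and sorted by flow cytometry, at postnatal day 5 (P5) and postnatal day 3 (P3). Each age had 3 biological replicates. No treatment or mutation separates the ages. The sources used here do not give how the fluorescent label was introduced or whether animals were pooled. All 10 upper-layer markers had at least 1 FPKM, the expression unit explained below, at both ages, and they summed to 494 FPKM at P5 and 504 at P3. All 10 deep-layer markers did too, with 165 FPKM at P5 and 75.6 at P3. Rprm and Pcp4 led that sum at P5, with 51.4 and 49.3 FPKM at P5 and 5.43 and 14.5 at P3. Of the 10, 8 were higher at P5 and 2, Bcl11b and Tbr1, were lower. The astrocyte marker list, with 3155 FPKM at P5 and 2628 at P3, summed above each neuronal list, though such sums depend on the genes listed. Aldoc, Slc1a3 and Gja1 had 773, 758 and 717 FPKM at P5 and 767, 1088 and 362 at P3. Aldh1l1 of the same list had 32.6 at P5 and 25.1 at P3. Levels below are therefore those of the sorted pools, and the cells that gave them were not tested.

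Wnt proteins are secreted, lipid-modified signals that bind a Frizzled receptor together with Lrp5 or Lrp6, and Dishevelled proteins relay the signal into the cell. Without a Wnt, a complex of Axin, APC and the kinase GSK3 marks beta-catenin for destruction, whereas with a Wnt beta-catenin accumulates and joins TCF/LEF factors on target genes. Other branches act without beta-catenin, and in the brain Wnt signals pattern the early cortex, steer axons and act on growing vessels.

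The unit was FPKM, in which fragment counts are divided by transcript length and library total, and Cuffdiff had given a single pooled value per age. Levels can therefore be compared between genes, but values per replicate were not used here and a level carries no error of its own. Ratios below are P5 over P3 on the log2 scale. Their standard error (SE) and 95% interval were taken from the test statistic that the authors deposited. Depth is unknown, because pooled FPKM keeps no count.

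The most abundant members were inside the cell or in the extracellular space as antagonists, and ligands and most receptors were scarce. Summed over a role, FPKM was 1019 at P5 and 1397 at P3 for transducers, and 130 at P5 and 164 at P3 for secreted antagonists. Frizzled receptors summed to 42.7 at P5 and 58.2 at P3. TCF/LEF factors summed to 21.5 at P5 and 27.0 at P3. Ligands summed to 20.1 at P5 and 29.7 at P3, and LRP co-receptors to 5.63 at P5 and 7.80 at P3. All 6 sums were lower at P5, with log2 ratios between -0.56 for ligands and -0.33 for TCF/LEF factors, beside -0.10 for the sum over all rows of the table. An approximate SE of these ratios, which treats the genes as independent, ran from 0.69 for ligands to 2.85 for transducers. No sum thus differed by more than its error. For ligands, LRP co-receptors, TCF/LEF factors and antagonists the negative sign rested on a single gene. For Frizzled receptors and transducers it did not. Without its most abundant gene, the ratio of the sums was 0.01 for ligands, 0.39 for TCF/LEF factors and 0.54 for antagonists. It was -0.14 for Frizzled receptors and -0.32 for transducers. For LRP co-receptors it was 2.10, which is Lrp5 alone, an untested gene with 0.11 FPKM at P5 and 0.025 at P3.

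**Figure D1:**
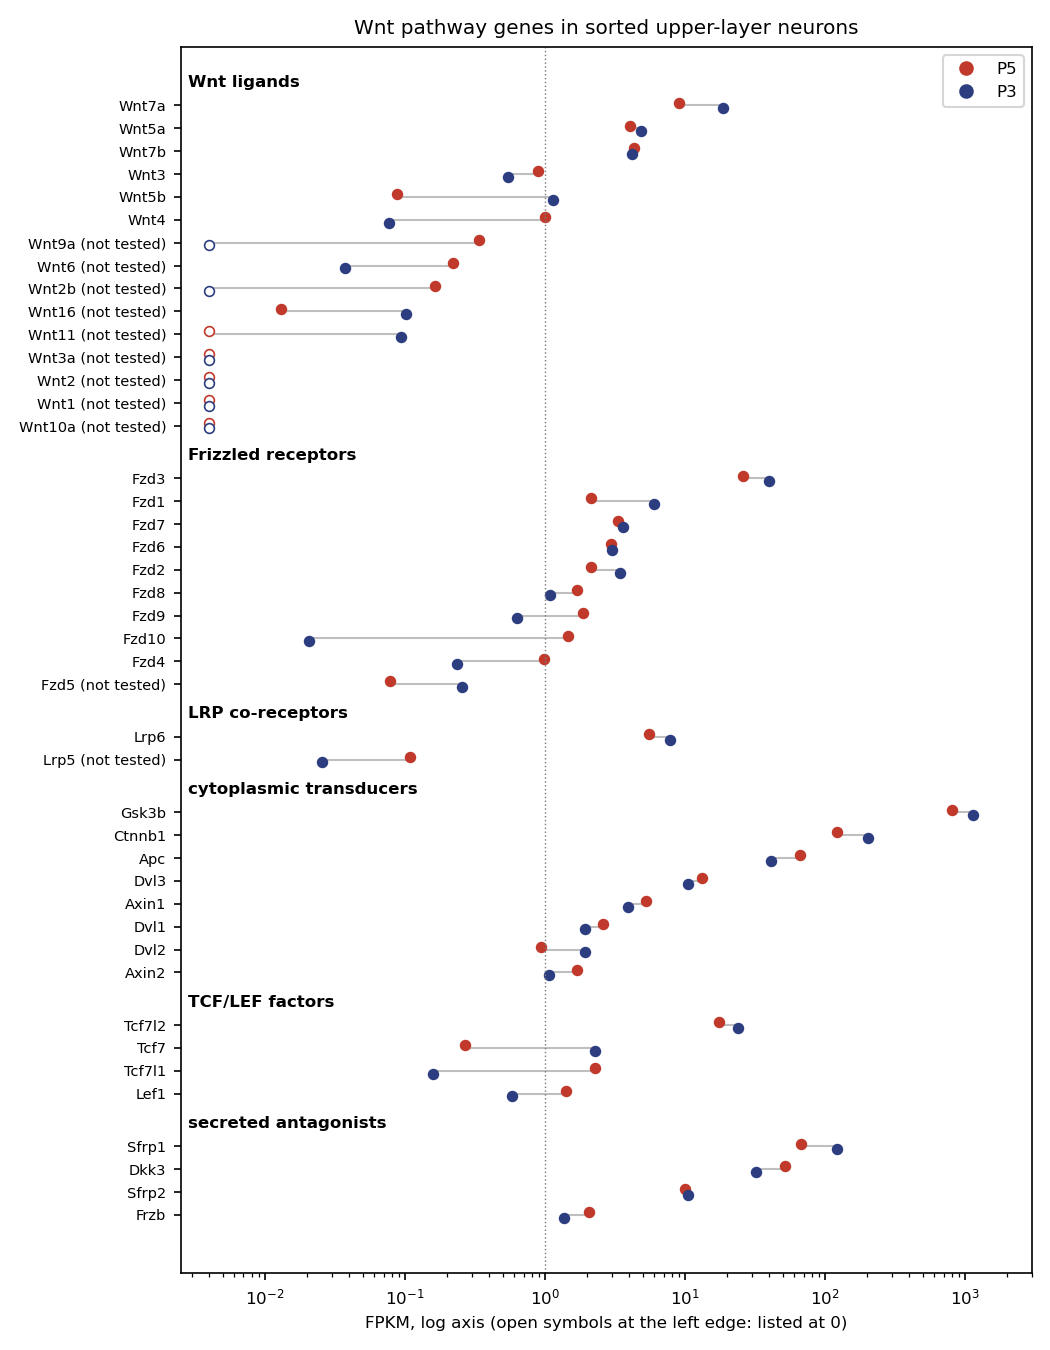
FPKM (log axis) of the 43 genes by role at P5 (red) and P3 (blue), 1 pooled value per age, with the most abundant gene of each role on top. Open symbols at the left edge stand for values listed at 0, and the dotted line marks 1 FPKM, which 29 genes reached at either age.

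No member differed between P5 and P3 by the authors' test. Of the 32 members that Cuffdiff had tested, 0 passed q = 0.05, and 0 of all 12865 tested genes did, which is 0%. At an unadjusted p under 0.05 the authors' deposited table had 0 of the 32 members, beside 0.770% of all tested genes, a share below the one that uniform p-values give. The lowest q of a member in the authors' deposited table was 0.999988. The remaining 11 members were not tested, and none of them exceeded 0.34 FPKM at either age.

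Among tested members, 16 had higher and 16 lower FPKM at P5, a share of 50% higher beside 55.6% of all tested genes. The median ratio of these members was 0.002, beside 0.13 over all tested genes. Of the 22 members with at least 1 FPKM at both ages, 9 were higher at P5 (40.9%, beside 51.1% of all such genes), and their median ratio was -0.10, beside 0.02. Of these 22, 0 had a ratio of 1 or more (beside 13.8% of such genes) and 2 had a ratio of -1 or less (9.09%, beside 7.72%), namely Wnt7a and Fzd1. Of all 32 tested members, 6 had a ratio of 1 or more (18.8%, beside 23.9% of all tested genes) and 5 a ratio of -1 or less (15.6%, beside 10.0%). These 11 were mostly scarce genes, with 9 below 1 FPKM at an age.

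**Figure D2:**
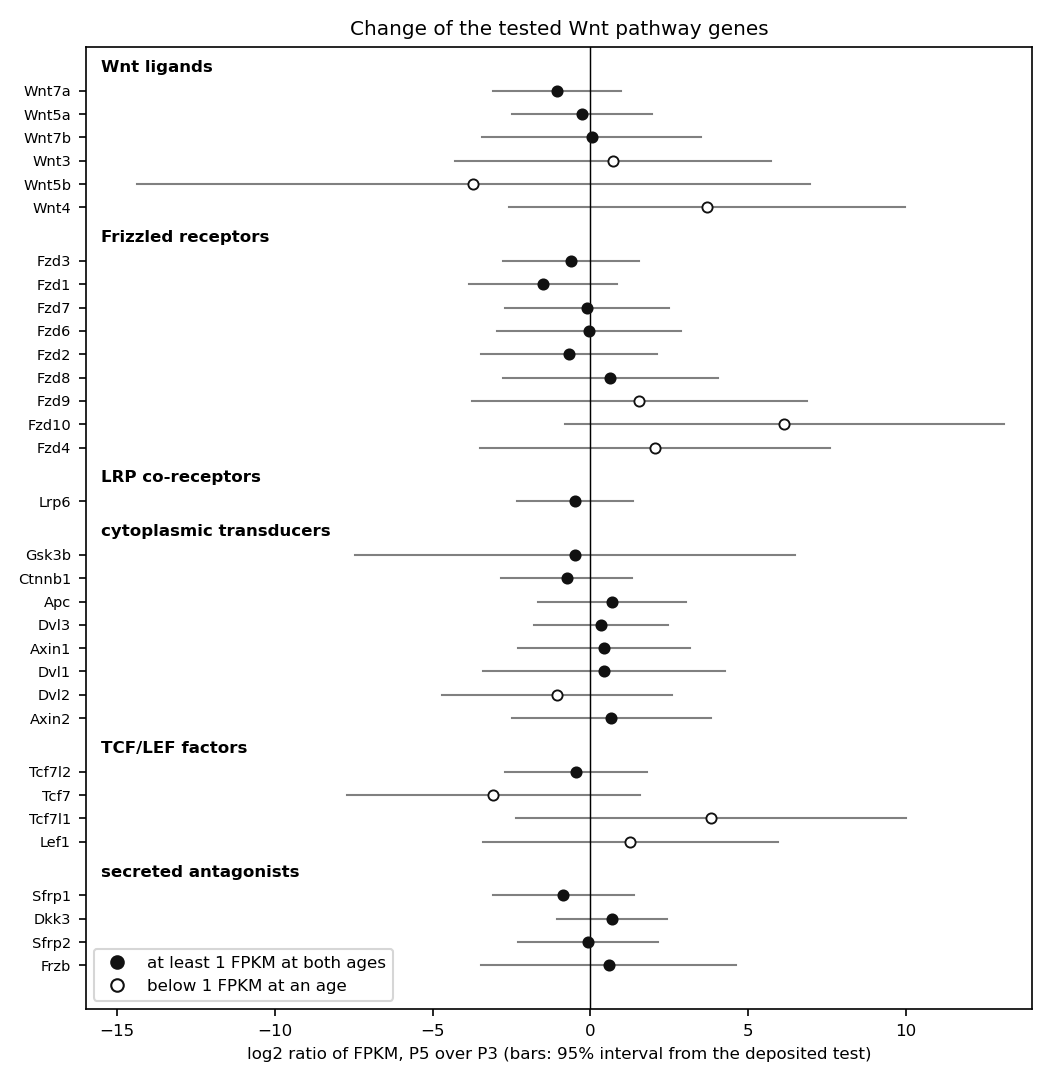
Log2 ratio of FPKM, P5 over P3, of the 32 tested members by role, with 95% intervals from the deposited test. All 32 intervals hold 0, and the open symbols, genes below 1 FPKM at an age, have most of the ratios beyond 1 in size.

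Among the ligands, 3 genes made up most of the signal at both ages. Wnt7a, a ligand of the beta-catenin branch made by neural cells, had 9.01 FPKM at P5 and 18.7 at P3 (mm9 chromosome 6, 91313977 to 91361363). Its log2 ratio was -1.05 (SE 1.04, 95% interval -3.09 to 0.99), so the lower level at P5 was no larger than about its error. Wnt7a held 44.9% of the ligand sum at P5 and 62.9% at P3. The difference of P5 minus P3 was -9.66 FPKM for Wnt7a and -9.61 FPKM for the ligand sum, and without Wnt7a the ratio of the ligand sums was 0.01 instead of -0.56.

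Wnt7b, the closest relative of Wnt7a, had 4.33 FPKM at P5 and 4.20 at P3, a ratio of 0.04 (SE 1.77). Its locus also holds another row of the table. Wnt5a, a ligand known for polarity and axon effects that do not need beta-catenin, had 4.03 FPKM at P5 and 4.84 at P3, a ratio of -0.26 (SE 1.13). Wnt7a was thus 2.08 times Wnt7b at P5 and 4.45 times at P3. The difference between the ratios of Wnt7a and Wnt7b was -1.09, with a 95% interval of -5.12 to 2.93 if their errors are independent.

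The other tested ligands were near or below 1 FPKM. Wnt4 had 0.998 FPKM at P5 and 0.076 at P3, a ratio of 3.71 (SE 3.20, p = 0.247 in the authors' deposited table). Wnt5b had 0.087 FPKM at P5 and 1.13 at P3, a ratio of -3.71 (SE 5.45), and shares its deposited locus with Fbxl14. Wnt3, a beta-catenin ligand, had 0.89 FPKM at P5 and 0.54 at P3. These genes thus lay in either direction, with ratios close to their errors or below them.

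Of the 9 untested ligands, Wnt1, Wnt2, Wnt3a and Wnt10a were listed at 0 at both ages. Wnt9a and Wnt2b had 0.338 and 0.163 FPKM at P5 and were listed at 0 at P3, and Wnt11 was listed at 0 at P5 and had 0.0935 at P3. Wnt6 and Wnt16 had 0.220 and 0.0130 FPKM at P5 and 0.0370 and 0.101 at P3. Several scarce ligands lie beside each other in the genome, an arrangement that is old in animals. In mm9, Wnt1 lies 11.7 kb from Wnt10b on chromosome 15, Wnt6 6.70 kb from Wnt10a on chromosome 1, Wnt3 24.4 kb from Wnt9b on chromosome 11 and Wnt3a 16.2 kb from Wnt9a on chromosome 11. No gene of these 4 pairs reached 1 FPKM at either age. The highest of them was Wnt3, and its neighbour Wnt9b was listed at 0 at both ages.

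Frizzled receptors were led by Fzd3, which is required in mice for the growth of major forebrain axon tracts. Fzd3 had 26.1 FPKM at P5 and 39.9 at P3 (mm9 chromosome 14, 65811278 to 65881300), a ratio of -0.61 (SE 1.10, 95% interval -2.76 to 1.53). It held 61.2% of the Frizzled sum at P5 and 68.6% at P3. Its level was 7.87 times that of Fzd7 at P5 and 11.1 times at P3. Without Fzd3 the ratio of the Frizzled sums was -0.14 instead of -0.45.

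Fzd1 had 2.12 FPKM at P5 and 5.997 at P3, a ratio of -1.50 (SE 1.20, p = 0.212 in the authors' deposited table). Fzd7 had 3.31 FPKM at P5 and 3.59 at P3, a ratio of -0.12 (SE 1.33). Fzd6, a receptor with roles in planar polarity, had 2.94 FPKM at P5 and 3.03 at P3, and Fzd2 had 2.14 at P5 and 3.44 at P3. Fzd8 had 1.68 FPKM at P5 and 1.09 at P3. Their order differed between the ages, with Fzd7 highest of these at P5 and Fzd1 at P3, and no pair was tested for it. Fzd5, which was not tested, had 0.0784 FPKM at P5 and 0.255 at P3.

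Fzd10, Fzd4 and Fzd9 had higher values at P5, all with less than 1 FPKM at P3. Fzd10 had the lowest p of any member, with 1.46 FPKM at P5 and 0.021 at P3, a ratio of 6.14 (SE 3.55, 95% interval -0.81 to 13.1, p = 0.0834 in the authors' deposited table). Fzd4, the receptor of brain and retinal vessels for norrin and Wnt7a signals, had 0.98 FPKM at P5 and 0.23 at P3, a ratio of 2.06 (SE 2.83). Fzd9 had 1.85 FPKM at P5 and 0.63 at P3, a ratio of 1.54 (SE 2.71). Over all tested genes below 1 FPKM at an age the median ratio was 1.57, and over the 10 such members it was 1.41.

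Lrp6 made up nearly all of the co-receptor signal. It had 5.52 FPKM at P5 and 7.77 at P3 (mm9 chromosome 6, 134396496 to 134516931), a ratio of -0.49 (SE 0.94). Lrp5 had 0.11 FPKM at P5 and 0.025 at P3 and was not tested. Lrp6 thus held 98.1% of the co-receptor sum at P5 and 99.7% at P3.

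**Figure D3:**
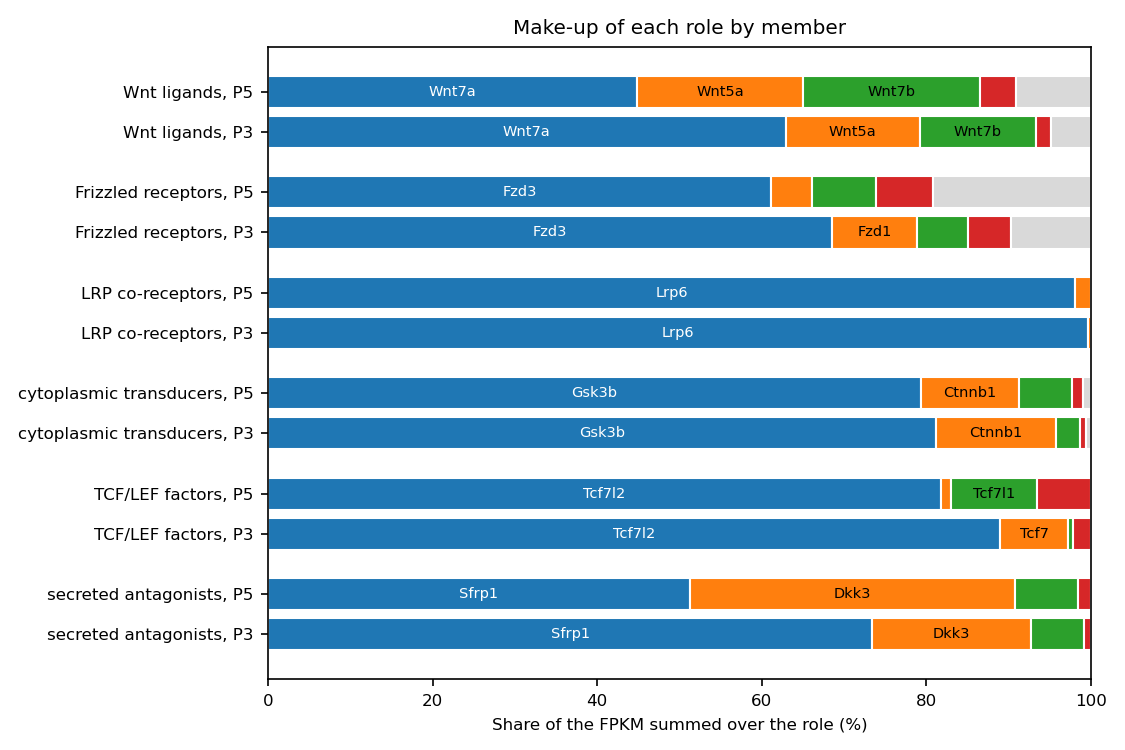
Share of the FPKM summed over each role (%), with P5 above P3. Colours rank the 4 most abundant genes of a role by mean level, grey is the rest, and names are printed in segments above 8%. The leading gene was the same at both ages in each of the 6 roles, with Wnt7a at 44.9% at P5 and 62.9% at P3 and Sfrp1 at 51.2% at P5 and 73.4% at P3.

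Cytoplasmic transducers had the highest summed level, of which Gsk3b made up 79.3% at P5 and 81.2% at P3. Gsk3b, the kinase that marks beta-catenin for destruction and also acts in neuronal polarity, had 808 FPKM at P5 and 1134 at P3 (mm9 chromosome 16, 38085150 to 38246165). Only 27 rows of the table were higher at P5 and 21 at P3. Its ratio of -0.49 had an SE of 3.55, beside a median SE of 2.17 over the 57 tested genes with a mean of at least 500 FPKM, and another row shares its locus. Whether so high a level comes from the pooled estimate was not tested, and the following ratios depend on it. The level of Gsk3b was 225 times that of its relative Gsk3a at P5 and 540 times at P3, with Gsk3a at 3.599 FPKM at P5 and 2.10 at P3.

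Ctnnb1, which encodes beta-catenin, both a signal carrier and a part of cell junctions, had 121 FPKM at P5 and 203 at P3 (mm9 chromosome 9, 120842518 to 120869625). Its ratio was -0.75 (SE 1.06, 95% interval -2.82 to 1.33). Apc, the scaffold of the destruction complex, which also binds microtubules, had 66.0 FPKM at P5 and 40.7 at P3, a ratio of 0.70 (SE 1.20, 95% interval -1.65 to 3.04), and another row shares its locus. Ctnnb1 was thus 1.84 times Apc at P5 and 4.98 times at P3. The difference between their ratios was -1.44, with a 95% interval of -4.58 to 1.69 if the errors are independent, an interval that holds 0.

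The scaffold gene Axin1 had 5.26 FPKM at P5 and 3.91 at P3, and Axin2, which beta-catenin itself switches on, had 1.68 at P5 and 1.07 at P3. Among Dishevelled genes, Dvl3 had 13.2 FPKM at P5 and 10.5 at P3, a ratio of 0.34 (SE 1.08). Dvl1 had 2.59 FPKM at P5 and 1.92 at P3 at a locus that holds another row, and Dvl2 had 0.93 at P5 and 1.93 at P3, a ratio of -1.05 (SE 1.86). Dvl3 was 5.11 times Dvl1 at P5 and 5.46 times at P3. Of the 8 transducers, 5 were higher and 3 lower at P5, and without Gsk3b the role summed to 211 FPKM at P5 and 263 at P3.

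TCF/LEF factors, which carry beta-catenin on DNA, were led by Tcf7l2. It had 17.6 FPKM at P5 and 24.02 at P3 (mm9 chromosome 19, 55816300 to 56008145), a ratio of -0.45 (SE 1.15), and held 81.7% of its role at P5 and 88.9% at P3. The other members were scarce and went in either direction. Tcf7 had 0.27 FPKM at P5 and 2.25 at P3, a ratio of -3.08 (SE 2.37, p = 0.193 in the authors' deposited table). Tcf7l1, known mainly as a repressor, had 2.26 FPKM at P5 and 0.16 at P3, a ratio of 3.83 (SE 3.15, p = 0.224 in the authors' deposited table), at a locus that holds another row. Lef1 had 1.40 FPKM at P5 and 0.58 at P3, a ratio of 1.27 (SE 2.39). Without Tcf7l2 the ratio of the role's sums was 0.39 instead of -0.33.

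Among the 4 secreted antagonists of the members, Sfrp1 and Dkk3 were the abundant ones. Sfrp1, a decoy that binds Wnts and is made by cortical progenitors, had 66.7 FPKM at P5 and 121 at P3 (mm9 chromosome 8, 24521974 to 24560104), a ratio of -0.85 (SE 1.15, 95% interval -3.10 to 1.39). Dkk3, a divergent Dickkopf family member, had 51.5 FPKM at P5 and 31.8 at P3 (mm9 chromosome 7, 119259533 to 119302571), a ratio of 0.69 (SE 0.89, 95% interval -1.05 to 2.44). Sfrp1 thus held 51.2% of the antagonist sum at P5 and 73.4% at P3, and Dkk3 39.5% at P5 and 19.4% at P3. The difference between their ratios was -1.55 with a 95% interval of -4.39 to 1.30 if the errors are independent. Without Sfrp1 the ratio of the antagonist sums was 0.54 instead of -0.34.

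Sfrp2, another decoy, had 9.97 FPKM at P5 and 10.5 at P3, a ratio of -0.08 (SE 1.14). Frzb, also called Sfrp3, had 2.05 FPKM at P5 and 1.37 at P3. Beside Sfrp1, markers of progenitors and radial glia summed to 149 FPKM at P5 and 206 at P3, with 7 of 9 lower at P5 and none at 0. Their part in the lower Sfrp1 value was not tested. In sorted pools, fewer cells of a type and less RNA per cell cannot be told apart.

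**Figure D4:**
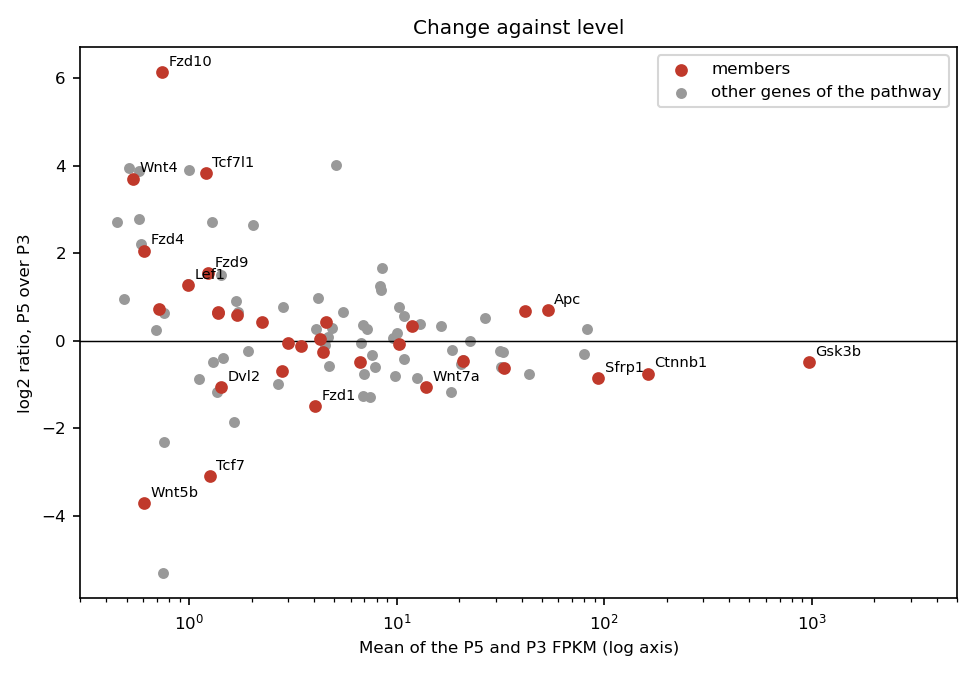
Log2 ratio of FPKM, P5 over P3, against the mean FPKM of the ages (log axis) for the tested members (red) and other tested genes of the pathway (grey). Members with ratios beyond 2 in size lie at means below 2 FPKM, and the members Gsk3b, Ctnnb1, Sfrp1 and Apc at the abundant end lie within 1 of 0.

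Other genes of the pathway were looked up from lists of 86 genes found in the table, of which 66 had been tested. Of these 66, 0 passed q = 0.05 and 0 had an unadjusted p under 0.05 by Cuffdiff, with a lowest p of 0.146 in the authors' deposited table, for Celsr1. Of the 65 with FPKM above 0 at both ages, 35 were higher and 30 lower at P5. Their share of higher genes, 53.8%, lay beside 55.6% of all tested genes.

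Genes for making and releasing Wnts were present in the sorted cells. Wls, which carries Wnts to the cell surface, had 13.0 FPKM at P5 and 8.70 at P3, a ratio of 0.57 (SE 1.08). Porcn, the enzyme that attaches the lipid, had 5.51 FPKM at P5 and 2.81 at P3. Notum, which removes that lipid outside the cell, had 2.24 FPKM at P5 and 0.34 at P3, a ratio of 2.71 (SE 2.91). The ligands Wnt8a, Wnt8b, Wnt9b and Wnt10b were listed at 0 at both ages.

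Of the genes that set receptor number, Znrf3, a ubiquitin ligase that removes Frizzleds, had 90.2 FPKM at P5 and 75.1 at P3. Lgr4, a receptor for R-spondins, had 29.6 FPKM at P5 and 35.6 at P3. Rspo3, an R-spondin that strengthens Wnt signals, had 1.80 FPKM at P5 and 3.57 at P3, and Lgr6 had 0.25 at P5 and 1.27 at P3. Lgr4 was thus the most abundant of the 3 R-spondin receptors, with Lgr5 at 0.048 FPKM at P5 and listed at 0 at P3.

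Among other Wnt receptors and polarity genes, Ryk, a Wnt receptor that guides axons, had 11.4 FPKM at P5 and 25.3 at P3, a ratio of -1.16 (SE 0.95). Daam1, which links Dishevelled to actin, had 16.6 FPKM at P5 and 24.1 at P3, and Prickle2 had 7.93 at P5 and 6.54 at P3. Celsr1, a polarity cadherin, had 0.72 FPKM at P5 and 2.58 at P3, a ratio of -1.84 (SE 1.27). Celsr3, the partner of Fzd3 in axon tract formation in mice, had 1.08 FPKM at P5 and 1.51 at P3, far below Fzd3. Gpr124 and Reck, through which Wnt7a and Wnt7b act on brain vessels, had 0.17 and 0.92 FPKM at P5 and 0.0087 and 0.59 at P3. Celsr3, Gpr124 and Reck were named after their values were seen, as were Gsk3a and Lgr5.

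Genes around the destruction complex were among the more abundant of the pathway. Csnk1a1, the kinase that primes beta-catenin, had 71.8 FPKM at P5 and 87.9 at P3, Csnk1e had 28.9 at P5 and 33.7 at P3, and Tnks2, which turns over Axin, had 22.4 at P5 and 22.5 at P3. The ratio of Tnks2 was -0.01, with an SE of 0.85. Csnk1g1 had 11.7 FPKM at P5 and 4.91 at P3, a ratio of 1.25 (SE 1.07), and Csnk1d had 8.94 at P5 and 16.0 at P3. Of these 16 genes, 8 were higher and 8 lower at P5.

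Of 12 tested nuclear cofactors, 3 were higher and 9 lower at P5, with a median ratio of -0.50, beside 55.6% higher and a median of 0.13 over all tested genes. The difference of the list from other genes was not tested. Ctnnbip1, which keeps beta-catenin from TCF factors, had 25.4 FPKM at P5 and 38.2 at P3, and Tbl1x had 17.8 at P5 and 24.2 at P3. Aes, a short relative of the Groucho corepressors, had 31.6 FPKM at P5 and 21.8 at P3. The Groucho genes Tle1 and Tle4 lay in opposite directions, Tle1 with 4.36 FPKM at P5 and 10.5 at P3 and Tle4 with 11.7 at P5 and 5.22 at P3. Their ratios were -1.27 (SE 1.03) and 1.16 (SE 1.10), and Tle4 is also on the deep-layer marker list, whose sum was higher at P5.

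Of 13 tested further antagonists and feedback inhibitors, 10 were higher and 3 lower at P5, with a median ratio of 0.77, again beside 55.6% and 0.13 over all tested genes. Dkkl1, Sostdc1, Kremen1, Nkd1 and Apcdd1 of these were below 1 FPKM at an age, where the median over all tested genes was 1.57. Igfbp4 had 12.9 FPKM at P5 and 7.57 at P3, and Cxxc5 had 12.9 at P5 and 4.07 at P3, a ratio of 1.66 (SE 1.38). Cxxc4, which binds Dishevelled, had 10.7 FPKM at P5 and 9.46 at P3. The scarce genes Kremen1 and Sostdc1 had 1.87 and 0.037 FPKM at P5 and 0.13 and 1.46 at P3. Dkk1 was listed at 0 at both ages.

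Of 13 genes known as direct targets of beta-catenin, 8 reached 1 FPKM at P5 and 5 at P3. Beside them, 11273 of all 22544 rows did so at P5 and 10226 at P3. Axin2, Lef1 and Tcf7 are also members, and Nkd1, Notum, Lgr5, Rnf43, Znrf3, Apcdd1 and Dkk1 are also on the lists above. Of the 11 tested, 9 were higher at P5, with a median ratio of 1.27, beside 55.6% higher and a median of 0.13 over all tested genes. The 4 with at least 1 FPKM at both ages had a median of 0.33, and they were Znrf3, Axin2, Ccnd1 and Myc. The cyclin gene Ccnd1 had 32.5 FPKM at P5 and 54.5 at P3, and the growth regulator Myc had 14.7 at P5 and 11.2 at P3, a ratio of 0.39 (SE 1.13). The 7 targets below 1 FPKM at an age had a median of 2.65, beside 1.57 over all such tested genes. Apcdd1, an inhibitor also made by vessel cells, had 3.52 FPKM at P5 and 0.56 at P3, a ratio of 2.65 (SE 2.44), and Sp5 had 1.07 at P5 and 0.073 at P3, a ratio of 3.88 (SE 3.48).

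**Figure D5:**
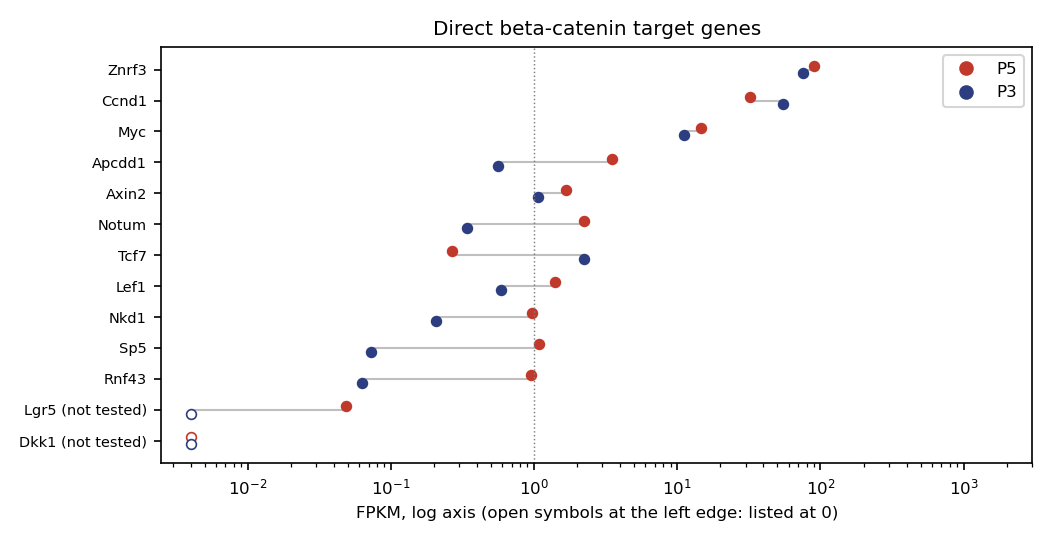
FPKM (log axis) of 13 direct beta-catenin target genes at P5 (red) and P3 (blue), 1 pooled value per age, with open symbols for values listed at 0. Znrf3, Ccnd1 and Myc lie above 10 FPKM at both ages, and the others lie below 4.

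Promoters were searched for the core sequence that TCF/LEF factors bind, CTTTGAT on either strand, in the 250 bases before each gene's start. Windows came from RefSeq on build GRCm38.p6, and 30 of the 43 members had one. The motif occurred in 2 of these 30 (6.67%), Wnt5b and Wnt11, in 1 of 7 direct targets with a window (14.3%), Sp5, and in 3.72% of all 27025 genes. The 3 stretches are shown because they are the matches among members and targets, read 5′ to 3′ on the gene's strand with the motif in capitals. The motif in Wnt11 is read as its reverse complement.
Sp5, chr2:70474789-70474855, plus strand: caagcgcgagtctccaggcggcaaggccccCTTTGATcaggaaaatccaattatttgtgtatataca
Wnt5b, chr6:119449421-119449487, minus strand: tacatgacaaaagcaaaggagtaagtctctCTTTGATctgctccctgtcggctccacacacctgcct
Wnt11, chr7:98835031-98835097, plus strand: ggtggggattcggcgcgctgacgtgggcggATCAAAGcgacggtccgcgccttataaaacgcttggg
The 3 genes had values of at most 1.13 FPKM at either age, and Sp5 was higher at P5 while Wnt5b and Wnt11 were lower. Sp5 and Wnt5b did not pass the test, and Wnt11 was not tested. A match in these windows describes letters, not binding.

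Markers of cell types other than neurons were present in the sorted pools, and most of their lists summed higher at P5. Endothelial markers were higher at P5 in 10 of 10 genes and summed to 93.2 FPKM at P5 and 39.2 at P3, with Tek and Ocln listed at 0 at P3. Slco1c1 alone held 64.5% of the endothelial sum at P5 and 88.2% at P3. Mural markers were higher in 6 of 8 and summed to 941 at P5 and 915 at P3, with Acta2 listed at 0 at P3. Most of that sum was Rgs5, with 905 FPKM at P5 and 911 at P3. Meningeal fibroblast markers were higher in 9 of 9, with 89.9 at P5 and 30.004 at P3. Of that sum, Pdgfra had 43.6 FPKM at P5 and 21.4 at P3. Pdgfra is also counted in the oligodendrocyte lineage list below, and Cspg4 in both that list and the mural list. Microglial markers were higher in 10 of 10, with 150 at P5 and 16.5 at P3. Astrocyte markers were higher in 8 of 10, with 3155 at P5 and 2628 at P3 and with Slc1a3 and Sox9 lower at P5. Oligodendrocyte lineage markers were higher in 10 of 10, with 308 at P5 and 140 at P3 and Mog listed at 0 at P3, and erythroid markers in 3 of 3 found, with 71.1 at P5 and 2.51 at P3 and Slc4a1 listed at 0 at P3. Choroid plexus markers summed to 0.17 FPKM at P5 and were all listed at 0 at P3. Of the 10 tested members below 1 FPKM at an age, 7 were higher at P5, namely Wnt3, Wnt4, Fzd4, Fzd9, Fzd10, Lef1 and Tcf7l1. The other 3, Wnt5b, Dvl2 and Tcf7, were lower. Of all 2648 tested genes below 1 FPKM at an age, 1908 were higher at P5. The part of other cell types in these values was not tested. Neuronal lists were mixed. Interneuron markers were higher in 5 of 8 and summed to 499 at P5 and 243 at P3, with Npy at 356 at P5 and 155 at P3 and with Gad2, Dlx1 and Lhx6 lower at P5. Pan-neuronal markers were higher in 5 of 8 and summed to 1354 at P5 and 880 at P3, with Dcx, Mtap2 and Neurod6 lower at P5.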

How the data were processed

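Per the labels, RNA of sorted upper-layer cortical neurons was sequenced at P5 and P3, with 3 samples at each age, grouped by title. TopHat, Cuffdiff 2.02 and build mm9 are named, with no roles, in the submitters' processing notes. The authors deposited FPKM pooled per age, and also the log2 ratio and the test statistic, handled here as scores, with a p-value and a q-value per gene. For the gene annotation, strandedness and depth nothing is stated in the sources used here, and without strand overlapping genes cannot be told apart.

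In the 12313 tested rows above 0 at both ages, the deposited p equalled the normal tail of the statistic to within 2.8e-06. Dividing each log2 ratio by its statistic and dropping the sign gave the SE. The deposited statistic has the opposite sign to the ratio in all 12313 rows. The code was also run on simulated statistics built by the same division, which checks its arithmetic and cannot test the SE itself. Rows of status OK were called at q = 0.05 in the Cuffdiff test that the authors deposited. Role sums and their approximate SE, which weights each gene's SE by its share of the sum, were computed from FPKM. Locus starts were read as counted from 0 and printed counted from 1, since end minus start equalled the annotated gene length in 2639 genes and was 1 short of it in 438. Members at a mean of 1 FPKM or more, with a ratio of at least 1 in size, or among the 3 highest of their role were to be named, as were the 3 most abundant genes and the 2 with the lowest p of each other list. The members and lists were chosen with earlier results of these data known. Alternatives were other thresholds, pseudocounts of 1 and 0.1 FPKM, filters, the mean, centring and sums without the leading gene. Scripts used Python 3.11.15, pandas 2.3.3 and scipy 1.17.1.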

Additional observations from a re-analysis of the deposited data

How the results depend on the processing

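The counts of 0 members and 0 other pathway genes were the same at an unadjusted p under 0.05. They also stayed 0 at q of 0.1, by Bonferroni adjustment and after a filter at 1 FPKM with p adjusted again. By the Cuffdiff test the lowest p was 0.0834 for members and 0.146 for the others, and the lowest q was 0.999988. The adjusted settings could thus give no other count and say nothing of stability. The median ratio of members, 0.0018, was 0.0027 with a pseudocount of 1 FPKM, -0.080 after that filter, 0 over all members with a pseudocount of 0.1 FPKM, -0.017 when centred and 0.27 as a mean. Its sign is therefore not settled. Without its most abundant gene, the ratio of role sums turned from negative to 0.54 for antagonists, 0.39 for TCF/LEF factors and 0.0068 for ligands. For LRP co-receptors it turned to 2.10, which is Lrp5 alone, an untested gene with 0.11 FPKM at P5 and 0.025 at P3. No SE was computed for these reduced sums. A pseudocount common to both ages cannot turn a gene's ratio, and centring shifted each ratio by only 0.019, so these settings, added for single genes after the data were seen, say nothing of stability. No paired analysis was possible because the deposited values are pooled per age, and for the same reason no replicate could be left out. An unknown depth limits all scarce genes.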
